A study of Mus musculus with 12 samples.

Results

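The 65 genes described here encode the cytochrome P450 enzymes of families 1 to 4 that were detected in mouse liver. They were chosen by name, annotation and read number: every row with a protein-coding gene whose GENCODE symbol starts with Cyp1, Cyp2, Cyp3 or Cyp4 and a subfamily letter, without pseudogenes, and with at least 10 reads summed over the 12 libraries. These 65 came from 82 such protein-coding genes and from 55414 rows in all. The other 17 were under the limit. The genes nearest to the limit were Cyp2ab1 with 26 reads and Cyp2d12 with 28 reads on the inside and Cyp2d34 with 8 reads and Cyp4a12b with 7 reads on the outside. Families 1, 2, 3 and 4 held 3, 39, 9 and 14 of the 65 members.

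Female C57BL/6J mice of 8 to 12 weeks received an intraperitoneal injection of 0.9% NaCl or of 300 mg/kg FeSO4 (iron sulfate), and 6 h later an injection of PBS or of 10 mg/kg dexamethasone (DEX), a synthetic glucocorticoid. Livers were taken 2 h after the second injection, 8 h after the first. The 4 groups NaCl/PBS, NaCl/DEX, FeSO4/PBS and FeSO4/DEX held 3 mice each, with 1 RNA-seq library per mouse and 16335651 to 23827340 counted reads per library. NaCl/PBS served as the control both for FeSO4/PBS and for NaCl/DEX, so these comparisons share 3 libraries. The tissue was checked on its markers. All 8 hepatocyte markers were tested, and their summed level was 103500 to 122600 CPM in NaCl/PBS mice. CPM are counts relative to the library total multiplied by its factor from the trimmed mean of M values (TMM), explained below. They are therefore not shares of all reads. The acinar markers Cpb1, Cpa1, Prss2, Ctrb1 and Pnlip had no read in any library. The same held for the kidney and intestine markers Kap, Lypd8, Slc34a1 and Cdx1. Other genes of these lists did have reads. Of 8 kidney and intestine markers, 1 was tested, Fabp2, and the list summed to 39.2 to 48.6 CPM in NaCl/PBS mice. Of 7 acinar markers found in the annotation, 1 was tested, Cela2a, and the list summed to 0.508 to 0.855 CPM in NaCl/PBS mice.

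Cytochromes P450 are heme enzymes of the endoplasmic reticulum that oxidize drugs, toxins, steroids, bile acids and fatty acids, with electrons from the reductase Por. Many hepatic Cyp genes are switched on by ligand-activated receptors: Cyp1 genes by the aryl hydrocarbon receptor (AHR), Cyp2b and Cyp3a genes by the constitutive androstane receptor (CAR, gene Nr1i3) and the pregnane X receptor (PXR, gene Nr1i2), and Cyp4a genes by PPAR-alpha. Several mouse Cyp genes are sex-biased, and many of the abundant ones are pericentral, being expressed in hepatocytes around the central vein.

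The promoters of 8 members are shown because the results turn on these genes: Cyp2b10 and Cyp3a11 rose after DEX, Cyp3a16, Cyp3a41a, Cyp3a41b and Cyp3a44 were all lower after FeSO4 and lie in 1 cluster, and Cyp2d11 and Cyp2d13 changed in opposite directions after FeSO4. Each sequence is GRCm39, 5′ to 3′ on the strand of the gene, from 250 bases before to 50 bases after the start of the GENCODE canonical transcript. Capitals mark matches, on either strand, to any of 6 motifs: GCGTG (core of the AHR element), TTGCNNAA (C/EBP factors), TTATGTAA (D-box), AGGTCA (nuclear receptor half-site), AGAACA (steroid receptor half-site) and TGACNNNGC (core of the antioxidant response element). The regions are chr7:25596795-25597094 (plus strand) for Cyp2b10, and on the minus strand chr5:145816818-145817117 for Cyp3a11, chr5:145406484-145406783 for Cyp3a16, chr5:145656897-145657196 for Cyp3a41a, chr5:145521491-145521790 for Cyp3a41b, chr5:145742637-145742936 for Cyp3a44, chr15:82278174-82278473 for Cyp2d11 and chr15:82526177-82526476 for Cyp2d13.
Cyp2b10: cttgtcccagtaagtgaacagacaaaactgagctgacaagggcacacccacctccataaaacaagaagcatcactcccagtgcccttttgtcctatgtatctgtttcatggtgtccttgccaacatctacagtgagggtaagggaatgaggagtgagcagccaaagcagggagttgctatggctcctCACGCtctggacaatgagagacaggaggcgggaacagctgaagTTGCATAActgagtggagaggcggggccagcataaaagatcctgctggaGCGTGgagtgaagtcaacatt
Cyp3a11: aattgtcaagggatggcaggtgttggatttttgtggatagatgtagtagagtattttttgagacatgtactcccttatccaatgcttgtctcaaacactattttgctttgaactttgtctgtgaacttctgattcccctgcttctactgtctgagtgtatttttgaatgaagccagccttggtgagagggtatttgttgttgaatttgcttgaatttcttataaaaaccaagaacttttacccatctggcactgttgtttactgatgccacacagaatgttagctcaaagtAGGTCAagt
Cyp3a16: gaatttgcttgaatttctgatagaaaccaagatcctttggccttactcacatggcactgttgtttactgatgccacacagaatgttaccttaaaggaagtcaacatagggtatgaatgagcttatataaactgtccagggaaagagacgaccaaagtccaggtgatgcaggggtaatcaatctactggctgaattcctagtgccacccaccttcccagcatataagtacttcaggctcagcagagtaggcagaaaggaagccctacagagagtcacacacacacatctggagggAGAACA
Cyp3a41a: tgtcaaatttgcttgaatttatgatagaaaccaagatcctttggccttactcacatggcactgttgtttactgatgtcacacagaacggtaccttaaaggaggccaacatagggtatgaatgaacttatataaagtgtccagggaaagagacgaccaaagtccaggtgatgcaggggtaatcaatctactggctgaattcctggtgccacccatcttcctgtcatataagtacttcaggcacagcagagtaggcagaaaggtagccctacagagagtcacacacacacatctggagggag
Cyp3a41b: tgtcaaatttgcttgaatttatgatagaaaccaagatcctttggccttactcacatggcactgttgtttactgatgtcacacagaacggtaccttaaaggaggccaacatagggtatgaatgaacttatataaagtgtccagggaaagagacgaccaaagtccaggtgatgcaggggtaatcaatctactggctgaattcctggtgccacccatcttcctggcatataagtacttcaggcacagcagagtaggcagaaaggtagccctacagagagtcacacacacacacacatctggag
Cyp3a44: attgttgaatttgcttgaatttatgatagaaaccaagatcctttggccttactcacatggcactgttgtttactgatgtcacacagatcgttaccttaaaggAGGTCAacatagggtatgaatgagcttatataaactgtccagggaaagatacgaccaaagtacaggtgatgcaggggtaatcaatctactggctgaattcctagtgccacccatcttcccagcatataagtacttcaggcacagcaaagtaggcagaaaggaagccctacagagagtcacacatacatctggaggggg
Cyp2d11: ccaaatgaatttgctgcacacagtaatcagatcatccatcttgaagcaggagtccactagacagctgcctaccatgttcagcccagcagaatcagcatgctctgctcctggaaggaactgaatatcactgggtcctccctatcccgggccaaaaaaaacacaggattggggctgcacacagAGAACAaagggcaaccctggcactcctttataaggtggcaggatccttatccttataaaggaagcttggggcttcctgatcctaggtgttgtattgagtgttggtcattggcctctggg
Cyp2d13: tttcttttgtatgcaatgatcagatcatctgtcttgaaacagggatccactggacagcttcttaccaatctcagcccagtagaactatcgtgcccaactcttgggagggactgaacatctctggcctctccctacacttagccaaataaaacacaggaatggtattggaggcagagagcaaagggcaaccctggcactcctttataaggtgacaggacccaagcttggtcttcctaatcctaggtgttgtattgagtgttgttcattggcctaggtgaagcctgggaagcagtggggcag

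The promoters of Cyp3a41a and Cyp3a41b were 98.3% identical in a global alignment. Those of Cyp3a16 and Cyp3a44 were 93.7% identical to that of Cyp3a41a. The window of their neighbour Cyp3a11 was 61% identical to that of Cyp3a41a. However, the last bases of the Cyp3a11 window resemble the first bases of the Cyp3a16, Cyp3a41a, Cyp3a41b and Cyp3a44 windows. The 61% thus compares windows that are offset by the annotated start, and it does not measure how far these promoters differ. The promoters of Cyp2d11 and Cyp2d13 were 74.3% identical. Cyp2b10 held GCGTG at 2 places, from −63 to −59 on the opposite strand and from 30 to 34, and TTGCNNAA from −20 to −13. Cyp2d11 held AGAACA from −69 to −64, and Cyp2d13 held none of the 6 motifs in this window. The C/EBP motif was in 14 of 65 member promoters (21.5%) and in 10.7% of all 21627 protein-coding promoters of the same length. The nuclear receptor half-site was in 16 member promoters (24.6%, all promoters 15.1%) and the steroid receptor half-site in 18 (27.7%, all promoters 17%). GCGTG was in 10 member promoters (15.4%, all promoters 37%), the antioxidant core in 3 (4.62%, all promoters 12.5%) and the D-box in none (all promoters 0.943%). The member promoters are not independent of each other, because near-identical ones are counted separately. Examples with the C/EBP motif are Cyp2b9 and Cyp2b13 (promoters 99% identical) and Cyp2a4 and Cyp2a5 (95%). The shares beside all promoters were therefore not tested as enrichment. A match is a run of letters and was not tested as a binding site.

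In length-corrected levels (CPM per kb of exon, mean of 12 libraries), Cyp2e1, which oxidizes ethanol and acetaminophen, was the highest member at 1770 CPM per kb. Cyp3a11, a broad drug and steroid oxidase, was second at 820.0. Cyp2c69 at 406, Cyp2d26 at 369, Cyp2a4 at 369 and Cyp2c29 at 363 CPM per kb came next and lay close to each other, and the first 6 members held 50.7% of the summed level per kb of all 65. Exon lengths came from the GENCODE release used here, and the release behind the counts may have had other exons, which would change levels and shares per kb. The counts also hold only uniquely placed reads. Of the 100-base windows of the transcript, 36.3% for Cyp2c69 and 22.5% for Cyp2a4 occur in other genes, against 0.374% for Cyp2d26 and 1.3% for Cyp2e1. Levels, their order and shares may therefore be understated by unequal amounts. By subfamily in NaCl/PBS mice, Cyp2e (24.5% ± 1.33 SD) and Cyp2c (24.5% ± 1.55) had the largest shares of the summed level per kb, followed by Cyp3a (13.4% ± 1.29) and Cyp2a (12.2% ± 2.60), n = 3 mice. At the other end, Cyp2ab1, Cyp2d12, Cyp2s1, Cyp3a57 and Cyp4a12a had at most 12 reads in any library and were not tested, which left 60 of 65 members tested. Cyp4a12a belongs to the male-biased Cyp genes, and its 62 reads over 12 libraries were those of female livers.

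The members together took 2.45 to 2.67% of all reads in NaCl/PBS mice and 1.77 to 2.29% in FeSO4/PBS mice. After scaling by the trimmed mean of M values (TMM), which sets the bulk of genes equal, their summed level was 23117, 21451 and 22259 CPM in NaCl/PBS mice and 19792, 24745 and 21597 CPM in FeSO4/PBS mice, and these ranges overlapped. By subfamily, the summed level in FeSO4/PBS mice as a percentage of that in NaCl/PBS mice was 76.7% for Cyp2e, 97.4% for Cyp2a, 104% for Cyp2c, 105% for Cyp2d, 107% for Cyp3a, 119% for Cyp4a, 132% for Cyp2f and 150% for Cyp1a. Among the weakly expressed subfamilies with 1 tested member, Cyp2u was at 33.6%, Cyp2g at 46.8%, Cyp4b at 62.8%, Cyp2r at 74.7% and Cyp1b at 181%. In bulk liver, fewer cells of a type and less RNA per cell cannot be told apart.

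**Figure D1:**
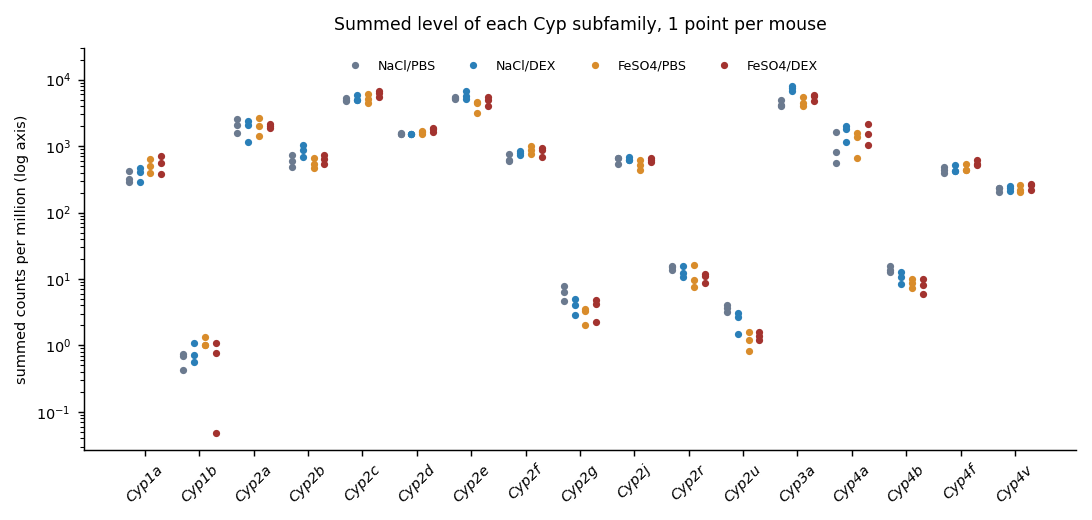
Summed level of each subfamily in CPM after TMM scaling (log axis), 1 point per mouse and 4 colours for the 4 groups, without the untested Cyp2ab and Cyp2s. The subfamilies span over 3 decades, and Cyp3a of NaCl/DEX mice, at 6779 to 7990 CPM, lies above all other groups.

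The first comparison asked how the members differed 8 h after FeSO4, without DEX. Of the 60 tested members, FeSO4/PBS mice had 9 lower and 11 higher than NaCl/PBS mice at an FDR (Benjamini-Hochberg over 13857 genes, edgeR quasi-likelihood test) of 0.05 or less, and 40 were not called. Over all tested genes, 27.3% were called lower and 27.2% higher. Beyond an LFC (log2 fold change) of 1, 7 members were lower and 5 higher, beside 14.7% and 12.5% of all genes. The median LFC was 0.06 over members and −0.02 over all genes. With library size alone as the scaling, which moved the median of all genes to −0.34, the split was 21 members lower and 6 higher, so small changes are relative to the bulk of genes. Under that scaling the rises of Cyp2a12 (LFC 0.01, FDR 0.94), Cyp2c70 (LFC 0.07, FDR 0.674), Cyp2d10 (LFC 0.12, FDR 0.325) and Cyp2f2 (LFC 0.07, FDR 0.654) were not called, and Cyp2a4, Cyp2b9, Cyp2e1, Cyp2j5 and Cyp2r1 were called lower (LFC −0.75 to −0.53).

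In Cyp3a, 5 of 8 tested members were lower and none was higher. In Cyp2c, the largest subfamily, 1 of 13 was called, and the LFCs ran from −0.37 to 1.08, the highest being that of the weakly expressed Cyp2c55 (FDR 0.0979). Cyp2d had 1 of 7 lower and 2 higher, Cyp2j 2 of 4 higher and Cyp4f 2 of 7 higher. Cyp2a, Cyp2b and Cyp4a each had 1 higher member, out of 4, 3 and 4. Neither Cyp1a member and not Cyp1b1 was called, and of the subfamilies with 1 member, Cyp2g1, Cyp2u1 and Cyp4b1 were lower, Cyp2f2 was higher, and Cyp2e1, Cyp2r1 and Cyp4v3 were not called.

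**Figure D2:**
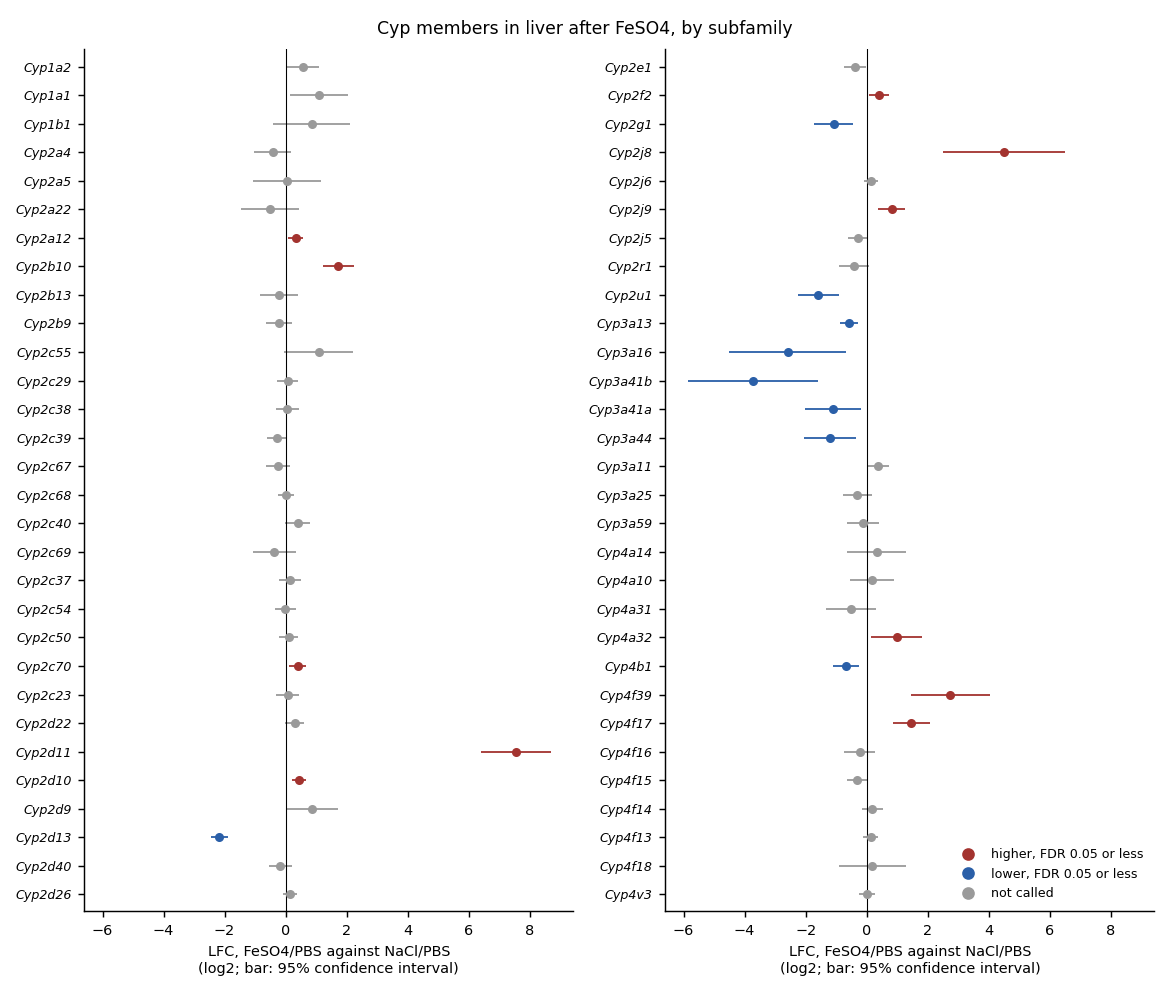
LFC of the 60 tested members, FeSO4/PBS against NaCl/PBS (log2 axis), in order of subfamily and then of genome position, with 95% confidence intervals and n = 3 mice per group. Red points are called higher (11), blue points called lower (9) and grey points not called (40), with Cyp2d11 at 7.55 and Cyp3a41b at −3.73 at the ends.

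Among the Cyp1 genes, whose common inducer is the AHR, Cyp1a2, which oxidizes caffeine and aromatic amines, had 8333, 5619.8 and 6333 normalized counts (counts scaled to the mean effective library size) in NaCl/PBS mice and 12692, 9762 and 7899 in FeSO4/PBS mice. The groups overlapped, and Cyp1a2 was just short of a call (LFC 0.58 ± 0.24 SE, FDR 0.0566), although it passed with DESeq2 (LFC 0.60, FDR 0.0283). Cyp1a1 (LFC 1.09, FDR 0.0523) and Cyp1b1 (LFC 0.85, FDR 0.235) were expressed at under 50 normalized counts in every mouse.

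In the Cyp2a, Cyp2b, Cyp2f and Cyp2g cluster on chromosome 7, Cyp2b10, the classic phenobarbital-inducible gene and CAR target, was higher after FeSO4. It had 347, 303 and 286 normalized counts in NaCl/PBS mice and 1285, 1002 and 803 in FeSO4/PBS mice (LFC 1.72 ± 0.24 SE, FDR 3.85e-05). All 3 FeSO4/PBS mice were above all 3 controls. Its neighbours Cyp2b13 and Cyp2b9, which are female-biased and lie 135 and 247 kb away, were not called (LFC −0.22 and −0.21, FDR 0.532 and 0.398). Cyp2a12 (LFC 0.33, FDR 0.024) and Cyp2f2, which activates naphthalene (LFC 0.40, FDR 0.0351), were slightly higher. These calls were lost for Cyp2a12 without FeSO4/PBS mouse 1, FeSO4/PBS mouse 2 or NaCl/PBS mouse 2 (LFC 0.28 to 0.32, FDR 0.0576 to 0.092) and for Cyp2f2 without FeSO4/PBS mouse 1, FeSO4/PBS mouse 2, NaCl/PBS mouse 1 or NaCl/PBS mouse 2 (LFC 0.30 to 0.41, FDR 0.0629 to 0.117). Cyp2a4 (LFC −0.43, FDR 0.215) and Cyp2a5, the coumarin hydroxylase (LFC 0.05, FDR 0.95), were not called. Cyp2g1, known from olfactory tissue and low here, fell from 153, 93.5 and 126 to 64.5, 69.2 and 40.8 normalized counts (LFC −1.09 ± 0.30 SE, FDR 0.00783).

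The Cyp2c genes, 13 members on chromosome 19 with drugs, arachidonic acid and bile acids among their substrates, were mostly not called. Cyp2c29 had 24508, 20612 and 22746 normalized counts in NaCl/PBS mice and 21168, 26968 and 23028 in FeSO4/PBS mice, for an LFC of 0.07 and a 95% confidence interval of −0.28 to 0.41. Cyp2c69, the highest of the subfamily, was spread widely within both groups (LFC −0.37, FDR 0.361). Cyp2c70, which makes the muricholic acids of mouse bile, was the 1 called member, at 11502, 9218 and 9994 normalized counts in NaCl/PBS and 13456, 14886 and 11920.4 in FeSO4/PBS mice (LFC 0.39 ± 0.13 SE, FDR 0.0226). The call was lost without FeSO4/PBS mouse 2, NaCl/PBS mouse 2 or NaCl/PBS mouse 3 (LFC 0.31 to 0.37, FDR 0.0701 to 0.0914).

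In the Cyp2d cluster of chromosome 15, a pair of members changed strongly and in opposite directions. Cyp2d11 had 2.16, 0 and 1.69 normalized counts in NaCl/PBS mice, at most 3 reads per library, and 133, 355 and 351 in FeSO4/PBS mice. Against a floor of 3 reads per library, it was at least 112-fold higher (fitted LFC 7.55 ± 0.54 SE, FDR 1.18e-07). Cyp2d13 had 4581, 4467 and 4429 normalized counts in NaCl/PBS mice and 842, 1007 and 1139 in FeSO4/PBS mice, a 4.51-fold decrease (LFC −2.17 ± 0.13 SE, FDR 4.24e-08). For neither gene did the groups overlap. Cyp2d13 went from 12.1 to 13.3% of the subfamily's summed level per kb to 2.49 to 3.07%, and Cyp2d11 from at most 0.0128% to 0.805 to 1.93%. These shares rest on the exon lengths of each gene, and those of Cyp2d13 may differ in the annotation behind the counts.

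The gene next to Cyp2d11, Cyp2d10, lies 5.88 kb away and was higher by less (6833, 7189.7 and 7229 normalized counts in NaCl/PBS and 9928, 9293 and 9543 in FeSO4/PBS mice, LFC 0.44 ± 0.11 SE, FDR 0.00342). Of the 100-base windows of the Cyp2d11 transcript, 11.1% occur identically in Cyp2d10 transcripts, where a read of that length cannot be placed uniquely. Cyp2d9, a male-biased steroid hydroxylase, was not called (LFC 0.86, FDR 0.0773), and nor were Cyp2d22 (LFC 0.30, FDR 0.105), Cyp2d40 (LFC −0.17, FDR 0.416) and Cyp2d26, the most abundant of the subfamily (LFC 0.13, FDR 0.325).

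Cyp2e1, the highest of all members, had 106114, 107655 and 102742 normalized counts in NaCl/PBS mice and 63297, 90157 and 89433 in FeSO4/PBS mice. The FeSO4/PBS mice were all below the controls, with mouse 1 the lowest, but the difference missed the FDR threshold (LFC −0.38 ± 0.17 SE, FDR 0.0641, 95% confidence interval −0.74 to −0.03). With library size alone it was called (LFC −0.70, FDR 0.00366).

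Of the Cyp2j genes, whose products make epoxides of arachidonic acid, Cyp2j9 rose from 114, 119.7 and 91.4 to 154, 199 and 221 normalized counts (LFC 0.82 ± 0.20 SE, FDR 0.00351). Cyp2j8, named after its values were seen, had at most 1 read per library in NaCl/PBS mice and 12.1, 14.2 and 19.1 normalized counts in FeSO4/PBS mice, at least 6.06-fold higher against the floor of 3 reads. The abundant Cyp2j5 was not called (LFC −0.30, FDR 0.0864). Cyp2u1, a fatty acid hydroxylase, fell 3.00-fold, from 79.8, 62.6 and 72.8 to 24.2, 16.3 and 31.9 normalized counts (LFC −1.59 ± 0.32 SE, FDR 0.000769). Cyp2r1, the 25-hydroxylase of vitamin D, was not called (LFC −0.42, FDR 0.146).

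The Cyp3a subfamily, on chromosome 5, held 5 of the 9 members that were lower, 4 of them in its main cluster. Cyp3a16 had 4994, 1662 and 4209 normalized counts in NaCl/PBS mice and 276, 1201 and 320.1 in FeSO4/PBS mice (LFC −2.59 ± 0.89 SE, FDR 0.0244). Cyp3a41a had 5519.7, 4232 and 4769.7 in NaCl/PBS and 1092, 3445 and 2189.7 in FeSO4/PBS mice (LFC −1.11 ± 0.43 SE, FDR 0.0404). These are female-biased members, and in both the FeSO4/PBS mice were all below the controls. Cyp3a41b had 859, 142 and 374 normalized counts in NaCl/PBS and 17.1, 46.8 and 40.8 in FeSO4/PBS mice (LFC −3.73 ± 1.00 SE, FDR 0.00597), and Cyp3a44 had 2133, 1685 and 2384 in NaCl/PBS and 516, 1292 and 908 in FeSO4/PBS mice (LFC −1.19 ± 0.40 SE, FDR 0.0208). For these 2 genes, too, the groups did not overlap. FeSO4/PBS mouse 1 was the lowest and mouse 2 the highest of its group for all 4 genes.

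These 4 calls varied in strength with the mice included. Cyp3a41b stayed called whichever mouse was left out. Cyp3a16 lost its call without FeSO4/PBS mouse 1, FeSO4/PBS mouse 3, NaCl/PBS mouse 1 or NaCl/PBS mouse 3 (LFC −2.47 to −2.24, FDR 0.0528 to 0.0849), Cyp3a44 without FeSO4/PBS mouse 1, FeSO4/PBS mouse 3 or NaCl/PBS mouse 3 (LFC −1.19 to −0.90, FDR 0.0527 to 0.079) and Cyp3a41a without FeSO4/DEX mouse 3, FeSO4/PBS mouse 1, FeSO4/PBS mouse 3, NaCl/PBS mouse 1, NaCl/PBS mouse 2 or NaCl/PBS mouse 3 (LFC −1.20 to −0.78, FDR 0.0518 to 0.132), always with a negative LFC. Cyp3a41a also missed the threshold with DESeq2 (LFC −1.09, FDR 0.0731). The transcripts of Cyp3a41a and Cyp3a41b are 99.7% identical, and 88.4% of the 100-base windows of Cyp3a41a occur in Cyp3a41b, so the counts, which hold only uniquely placed reads, rest on a small part of either gene and their split is uncertain. Cyp3a16 and Cyp3a44 share under 6% of their windows with other genes. Cyp3a13 was also lower, at 5535, 7113 and 5377 normalized counts in NaCl/PBS and 3866, 4452 and 3749 in FeSO4/PBS mice (LFC −0.58 ± 0.13 SE, FDR 0.002). It lies on the same chromosome but apart from the cluster.

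The most abundant gene of this cluster, Cyp3a11, lies 48.5 kb beyond Cyp3a44 and was not lower. It had 63679, 53762 and 56365 normalized counts in NaCl/PBS mice and 66748, 88138 and 70783 in FeSO4/PBS mice (LFC 0.38 ± 0.16 SE, FDR 0.0598), all FeSO4/PBS mice being above the controls. DESeq2 called it higher (LFC 0.40, FDR 0.0259), and so did the fit without FeSO4/DEX mouse 1 (LFC 0.38, FDR 0.0316) or FeSO4/PBS mouse 1 (LFC 0.46, FDR 0.032). Cyp3a25 (LFC −0.31, FDR 0.251) and Cyp3a59 (LFC −0.12, FDR 0.693) on its other side were not called. Cyp3a11 made up 52.2 to 57.5% of the subfamily's summed level per kb in NaCl/PBS mice and 72.8 to 79.8% in FeSO4/PBS mice.

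In family 4, whose enzymes hydroxylate the end carbon of fatty acids and eicosanoids, Cyp4f17 rose from 150.3, 173 and 205 to 353, 575 and 525 normalized counts (LFC 1.46 ± 0.28 SE, FDR 0.000558), with no overlap. Cyp4f39, named after its values were seen, lies next to it and rose from 5.75, 4.68 and 0.846 to 32.3, 17.3 and 29.3 (LFC 2.74 ± 0.61 SE, FDR 0.00172). The abundant Cyp4f14 was not called (LFC 0.18, FDR 0.364), nor was Cyp4v3 (LFC 0.02, FDR 0.911). Cyp4b1 fell from 272, 249 and 307 to 146, 172 and 202 normalized counts (LFC −0.68 ± 0.20 SE, FDR 0.0108).

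The Cyp4a genes are PPAR-alpha targets. Cyp4a10 and Cyp4a14 varied more between mice of 1 group than between the NaCl/PBS and FeSO4/PBS groups. Cyp4a14 had 5103, 17529 and 8067 normalized counts in NaCl/PBS mice and 6009, 14372 and 17997 in FeSO4/PBS mice (LFC 0.32, FDR 0.568). Cyp4a10 had 5743, 14359 and 7975 in NaCl/PBS and 6687, 12551 and 12160.2 in FeSO4/PBS mice (LFC 0.16, FDR 0.71). Mouse 1 of either group was the lowest for both genes, and the groups overlapped. Cyp4a32 was called higher (LFC 0.99 ± 0.39 SE, FDR 0.0439), but its groups overlapped, and 49.3% of its transcript windows occur in other genes on either strand. Of its windows, 28.3% occur in Cyp4b1, whose annotation overlaps it at the same locus on the opposite strand. The libraries were stranded, and how far the counts kept these genes apart was not tested. The call was lost without FeSO4/DEX mouse 2, FeSO4/PBS mouse 2, FeSO4/PBS mouse 3, NaCl/DEX mouse 1, NaCl/DEX mouse 3, NaCl/PBS mouse 1 or NaCl/PBS mouse 3 (LFC 0.61 to 1.00, FDR 0.0514 to 0.223) and with DESeq2 (LFC 1.02, FDR 0.0609).

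**Figure D3:**
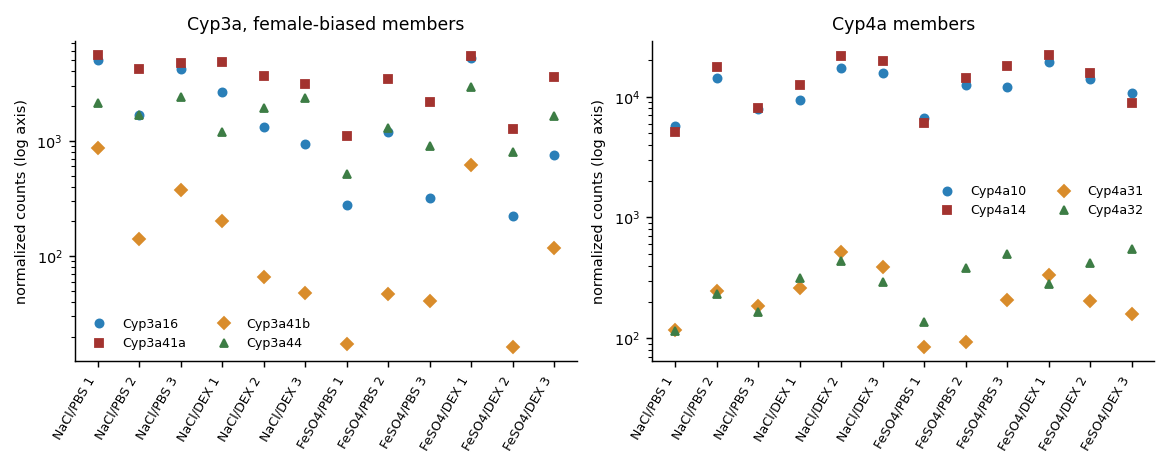
Normalized counts per mouse (log axis) of 4 female-biased Cyp3a members, left, and 4 Cyp4a members, right, with 1 marker per gene. For the Cyp3a genes the FeSO4/PBS mice lie below the NaCl/PBS mice while FeSO4/DEX mouse 1 reaches control levels (Cyp3a16 5273), and for Cyp4a10 and Cyp4a14 mouse 1 is the lowest of its group in NaCl/PBS and FeSO4/PBS and the highest in FeSO4/DEX.

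The spread between mice differed from member to member. The within-group coefficient of variation (root mean square over the 4 groups) had a median of 19.3% over the 60 tested members and 16.7% over all tested genes. It was 87.5% for Cyp3a16, 88.3% for Cyp3a41b, 51.7% for Cyp2a5 and 47.0% for Cyp4a14, against 6.2% for Cyp2d26, 6.46% for Cyp2d10 and 7.69% for Cyp2a12. An LFC that could be called for Cyp2d10, 0.44, was therefore well within the mouse-to-mouse spread of Cyp3a16 or Cyp4a14.

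By known control rather than by subfamily, 0 of 3 AHR target Cyps were called after FeSO4 (median LFC 0.85), 1 of 6 CAR and PXR targets was lower and 1 higher (0.22), 1 of 4 PPAR-alpha targets was higher (0.24), and 0 of 8 pericentral Cyps were called (0.08). Of 9 female-biased Cyps, 4 were lower, all of them Cyp3a genes of 1 cluster, and none was higher (median −0.43), while Cyp2b9, Cyp2b13, Cyp2a4, Cyp2c40 and Cyp2c69 were not called. Of 2 tested male-biased Cyps, Cyp2u1 was lower. These lists overlap and include genes picked with earlier results known. Their counts stand beside 27.3% of all tested genes called lower and 27.2% called higher.

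Genes that act on the members were called as well, beside 27.3% of all tested genes lower and 27.2% higher. Of 9 tested xenobiotic and metabolic receptors, 5 were lower and 2 higher after FeSO4: Nr1i3, the gene of CAR, fell (LFC −2.28, FDR 8.07e-07), as did Nr0b2 (LFC −2.21, FDR 0.000394), Ppara (LFC −1.09, FDR 0.00255), the glucocorticoid receptor gene Nr3c1 (LFC −0.89, FDR 0.000184) and Nr1h4 (LFC −0.58, FDR 0.00105). Nr1i2, the gene of PXR, rose (LFC 0.44, FDR 0.00284), and so did Arnt (LFC 0.48, FDR 0.00385). Of 15 hepatocyte transcription factors that act on Cyp genes, 8 were lower, with the D-box factors Dbp (−4.98), Tef (−2.16) and Hlf (−1.63) and Foxa3 (−2.04) at the largest falls in LFC, and 4 were higher, including Cebpb (2.08) and Hnf4a (0.98). Of 9 electron transfer and heme partners, 2 were lower and 4 higher, among them Por (LFC 0.90, FDR 7.33e-05), Alas1, which starts heme synthesis (LFC 0.91, FDR 0.00026), and Hmox1, which degrades heme (LFC 6.02, FDR 3.34e-09).

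Some markers of other cells and zones were called after FeSO4 as well, beside 27.3% of all tested genes lower and 27.2% higher. Calls and summed levels of the markers are after TMM scaling, so the levels are not shares of all reads. The TMM factors were 1.14 to 1.16 in NaCl/PBS and 0.896 to 0.952 in FeSO4/PBS mice. Neutrophil markers were higher (6 of 7 tested, summed level 6.02 to 15.1 CPM in NaCl/PBS and 41.0 to 48.9 CPM in FeSO4/PBS mice), and Kupffer cell and macrophage markers were lower (7 of 8, 395 to 461 and 205 to 244 CPM). Endothelial markers were lower for 5 and higher for 1 of 8 (343 to 400 and 198 to 301 CPM). Hepatocyte markers were higher for 5 of 8 (103500 to 122600 and 138000 to 156000 CPM). Pericentral markers outside the Cyp family were lower for 5 and higher for 1 of 10 (2422 to 2836 and 2659 to 3044 CPM), and periportal ones lower for 1 and higher for 5 of 9 (7490.0 to 9479 and 7459 to 9840.0 CPM). Lymphocyte (1 of 5 lower), stellate (2 lower and 2 higher of 8) and mesothelial markers (1 of 3 lower) had calls too. Their part in the members' changes was not tested.

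The second comparison asked what DEX alone did in 2 h. Of 60 tested members, NaCl/DEX mice had 1 lower and 2 higher than NaCl/PBS mice, beside 7.15% of all genes lower and 6.5% higher. DESeq2 called 4 members higher, and the counts moved to 5 higher without FeSO4/PBS mouse 1, 4 higher without NaCl/PBS mouse 2 and 2 lower without NaCl/DEX mouse 1. The 2 raised members were Cyp2b10 and Cyp3a11, both targets of CAR and PXR, and the lowered member was Cyp2d13.

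Cyp2b10 had 347, 303 and 286 normalized counts in NaCl/PBS mice and 9044, 7153 and 8212 in NaCl/DEX mice, 26.0-fold more (LFC 4.70 ± 0.26 SE, FDR 9.44e-08). Its share of the summed Cyp2b level per kb went from 2.18 to 2.88% to 41.5 to 49.8%. Cyp3a11 had 63679, 53762 and 56365 normalized counts in NaCl/PBS and 118030.3, 109072 and 132898 in NaCl/DEX mice, 2.07-fold more (LFC 1.05 ± 0.16 SE, FDR 0.00057). For neither gene did the groups overlap. The summed Cyp3a level rose from 3961 to 4979 CPM to 6779 to 7990 CPM. Cyp2d13 fell from 4581, 4467 and 4429 to 2717, 2917 and 2431 normalized counts (LFC −0.74 ± 0.13 SE, FDR 0.00133), again without overlap. These 3 calls held in every alternative that was run except the limit of LFC beyond 1, which Cyp2d13 did not reach.

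The other targets of CAR and PXR were not called after DEX: Cyp2c55 (LFC 0.86, FDR 0.33), Cyp2a5 (LFC −0.38, FDR 0.697), Cyp2c29 (LFC 0.09, FDR 0.782) and Cyp3a13 (LFC −0.09, FDR 0.732). The neighbours of Cyp2b10 went the other way without being called, with Cyp2b13 at LFC −0.70, FDR 0.136 and Cyp2b9 at LFC −0.28, FDR 0.412. All 4 tested Cyp4a members had LFCs between 0.59 and 1.11, none called. NaCl/DEX and NaCl/PBS mice overlapped for Cyp4a10 and Cyp4a14 and did not for Cyp4a31 and Cyp4a32. Cyp2d11, at 5.37, 4.7 and 8.05 normalized counts, stayed close to the floor of 3 reads (LFC 2.04, FDR 0.168). Among the receptors, Nr1i2 (LFC 0.74, FDR 0.000303) and Ahr (LFC 1.47, FDR 0.000181) were higher and Nr1i3 was lower (LFC −0.96, FDR 0.00429), and of the partners Por (LFC 0.80, FDR 0.00108) and Alas1 (LFC 1.97, FDR 3.44e-06) were higher. Among cell and zone markers, 2 of 8 hepatocyte markers were higher (summed level 125600 to 143300 CPM in NaCl/DEX mice), 3 of 10 pericentral markers outside the Cyp family were lower and 1 higher, 1 of 9 periportal markers was lower and 1 higher, and 1 marker each was lower among 7 of neutrophils, 8 of endothelial cells and 8 of stellate cells. No Kupffer cell, lymphocyte or mesothelial marker was called. In this comparison, 7.15% of all tested genes were lower and 6.5% higher. The part of these cells and zones in the members' changes after DEX was not tested.

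**Figure D4:**
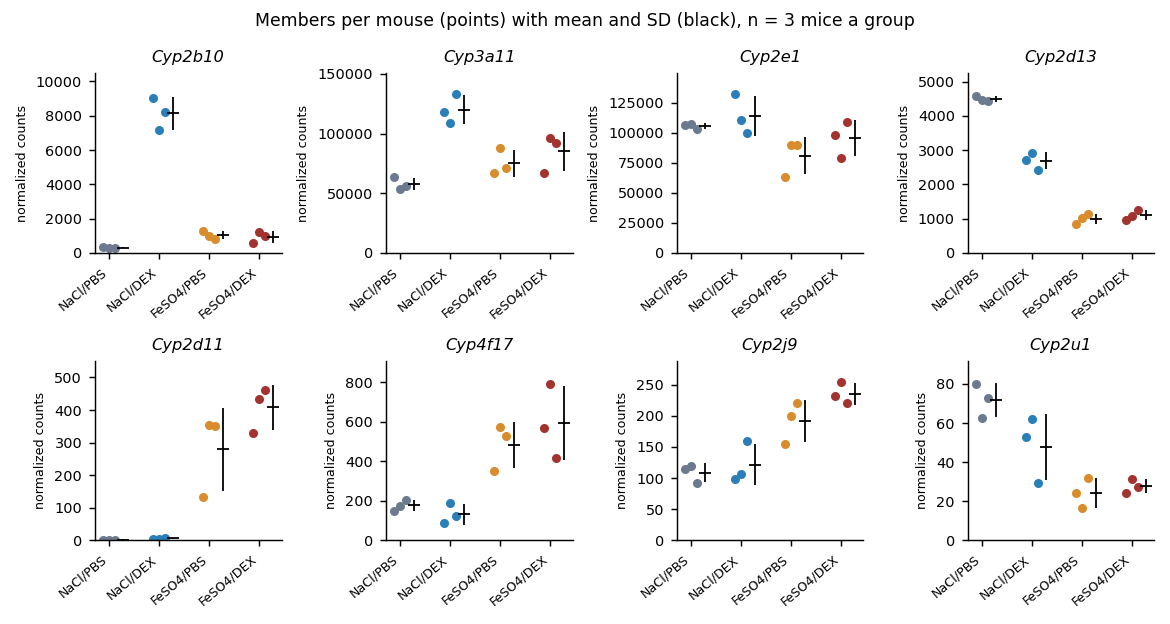
Normalized counts (linear axis from 0) of 8 members in each mouse, with the mean and SD of 3 mice in black. Cyp2b10 is highest in NaCl/DEX mice (9044, 7153 and 8212), Cyp2d13 steps down from NaCl/PBS over NaCl/DEX to both FeSO4 groups, and Cyp2d11 is near 0 in both NaCl groups.

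The third comparison asked what DEX did in mice that had received FeSO4 6 h earlier. None of the 60 tested members was called in FeSO4/DEX against FeSO4/PBS mice by edgeR, and 0% of all 13857 genes were called in either direction. At an unadjusted p under 0.05 there were 4 members, Cyp2c54, Cyp3a41b, Cyp3a44 and Cyp4a31, beside 6.49% of all genes, and DESeq2 called no member either, whereas 6 were called by edgeR without a filter on low counts. Cyp2b10 had 1285, 1002 and 803 normalized counts in FeSO4/PBS mice and 562, 1199 and 1014 in FeSO4/DEX mice, with an LFC of −0.16 and a 95% confidence interval of −0.65 to 0.33. Cyp3a11 had 66748, 88138 and 70783 in FeSO4/PBS and 66754, 96529 and 92262 in FeSO4/DEX mice, with an LFC of 0.18 (−0.16 to 0.52). Cyp2d13 had 842, 1007 and 1139 in FeSO4/PBS and 976, 1079 and 1252 in FeSO4/DEX mice, with an LFC of 0.15 (−0.13 to 0.42). In all 3 genes the groups overlapped, and none of the intervals included the LFC that DEX gave in NaCl mice.

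The difference between these DEX responses was tested as an interaction. It was called for 4 of 60 members, 2 lower and 2 higher in FeSO4 mice, beside 3.2% and 2.99% of all genes, and for 2 members without FeSO4/DEX mouse 1, FeSO4/PBS mouse 2, NaCl/DEX mouse 3 or NaCl/PBS mouse 3. The DEX response of Cyp2b10 was smaller in FeSO4 mice (LFC −4.86 ± 0.34 SE, FDR 3.38e-06), and that of Cyp3a11 was smaller as well (LFC −0.87 ± 0.23 SE, FDR 0.0365). The fall of Cyp2d13 with DEX was seen in NaCl mice and not in FeSO4 mice, where it was already low (LFC 0.89 ± 0.18 SE, FDR 0.00985). Cyp2b10 and Cyp2d13 kept this call in every alternative run that could give it, apart from the limit of LFC beyond 1 for Cyp2d13.

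The calls for Cyp3a11 and Cyp3a41b were less firm. For Cyp3a11 the call was lost without FeSO4/DEX mouse 1, FeSO4/PBS mouse 2, NaCl/DEX mouse 1, NaCl/DEX mouse 3, NaCl/PBS mouse 2 or NaCl/PBS mouse 3 (LFC −0.89 to −0.73, FDR 0.0647 to 0.0932). Cyp3a41b had 17.1, 46.8 and 40.8 normalized counts in FeSO4/PBS and 619, 16.3 and 118 in FeSO4/DEX mice (LFC 5.02 ± 1.33 SE, FDR 0.04). FeSO4/DEX mouse 1 was far above the other FeSO4 mice, and in NaCl mice the level went from 859, 142 and 374 to 201, 65.8 and 48.3 with DEX. The call was lost without FeSO4/DEX mouse 1, FeSO4/PBS mouse 1, FeSO4/PBS mouse 2, FeSO4/PBS mouse 3, NaCl/DEX mouse 2, NaCl/DEX mouse 3, NaCl/PBS mouse 1 or NaCl/PBS mouse 3 (LFC 3.12 to 5.33, FDR 0.0583 to 0.149). The same mouse was the highest of its group for Cyp3a16 (5273, 223 and 757), Cyp3a41a (5441, 1278 and 3581) and Cyp3a44 (2904, 799 and 1638), and mouse 2 was the lowest for all 4 genes.

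**Figure D5:**
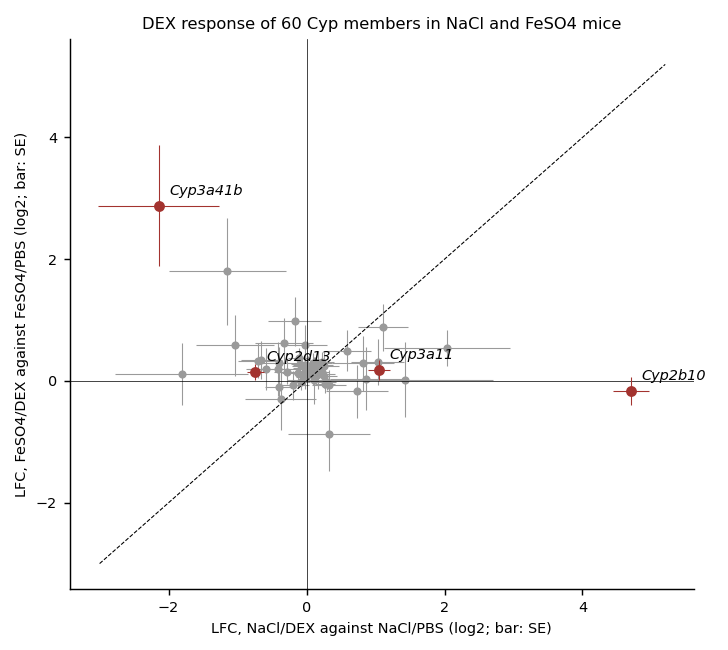
LFC after DEX in NaCl mice (horizontal) against that in FeSO4 mice (vertical) for the 60 tested members, with SEs, 3 mice per group and a dashed line of equal response. Red points are the 4 members with a called difference: Cyp2b10 lies at 4.70 and −0.16, Cyp3a11 at 1.05 and 0.18, Cyp2d13 at −0.74 and 0.15 and Cyp3a41b at −2.14 and 2.88.

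The fourth comparison asked how FeSO4 and NaCl mice differed once both had received DEX. Of 60 tested members, 4 were lower and 12 higher in FeSO4/DEX than in NaCl/DEX mice, beside 20.9% and 22.4% of all genes. The lower members were Cyp2b10 (LFC −3.14 ± 0.24 SE, FDR 4.10e-07), Cyp2d13 (LFC −1.29 ± 0.13 SE, FDR 3.80e-06), Cyp3a13 (LFC −0.51 ± 0.13 SE, FDR 0.00655) and Cyp3a11 (LFC −0.49 ± 0.16 SE, FDR 0.0224). Cyp2b10 thus was 3.3-fold higher with FeSO4 in mice given PBS and 8.81-fold lower with FeSO4 in mice given DEX. With library size alone the split was 8 lower and 6 higher.

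The higher members were spread over Cyp2a, Cyp2b, Cyp2c, Cyp2d, Cyp2j and Cyp4f, and these genes were picked for their calls. Cyp2d11 had 5.37, 4.7 and 8.05 normalized counts in NaCl/DEX mice and 329, 434 and 461 in FeSO4/DEX mice (LFC 6.05 ± 0.44 SE, FDR 2.66e-07). Cyp4f17 had 85.9, 189.9 and 121 in NaCl/DEX and 569, 791 and 419 in FeSO4/DEX mice (LFC 2.16 ± 0.29 SE, FDR 4.46e-05), and Cyp2j9 had 97.7, 107 and 160.1 in NaCl/DEX and 231, 254 and 220.0 in FeSO4/DEX mice (LFC 0.95 ± 0.20 SE, FDR 0.00171). In each, all FeSO4/DEX mice were above all NaCl/DEX mice. Cyp4f39 was at most at 3 reads per library in NaCl/DEX mice and at least 9.38-fold higher in FeSO4/DEX mice. Cyp4f18, a leukotriene hydroxylase known from neutrophils, was also higher (7.51, 4.7 and 2.01 normalized counts in NaCl/DEX and 20.3, 19.0 and 10.7 in FeSO4/DEX mice, LFC 1.80 ± 0.56 SE, FDR 0.0175), and all 7 tested neutrophil markers were higher in the same comparison (summed level 4.37 to 6.31 CPM in NaCl/DEX and 30.4 to 36.9 CPM in FeSO4/DEX mice). Without DEX, where 6 of 7 neutrophil markers were higher after FeSO4, Cyp4f18 was not called (12.9, 11.2 and 5.08 normalized counts in NaCl/PBS and 15.1, 10.2 and 7.65 in FeSO4/PBS mice, LFC 0.18, FDR 0.79). Between FeSO4/DEX and NaCl/DEX mice, 20.9% of all tested genes were lower and 22.4% higher. Of 8 Kupffer cell and macrophage markers, 5 were lower with FeSO4 in mice given DEX, and of 8 endothelial markers 3 were lower and 1 higher. Of the others, 2 of 8 hepatocyte and 2 of 8 stellate markers were higher, 2 of 10 pericentral markers outside the Cyp family were lower, and 1 of 9 periportal markers was lower and 2 were higher. No lymphocyte or mesothelial marker was called. The part of these cells in the level of Cyp4f18 or any other member was not tested.

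The remaining higher members were Cyp2b13 (LFC 0.81, FDR 0.0365), Cyp2c54 (LFC 0.48, FDR 0.0287), Cyp2c50 (LFC 0.46, FDR 0.0162), Cyp4f14 (LFC 0.46, FDR 0.0327), Cyp2a12 (LFC 0.41, FDR 0.00962) and Cyp2d10 (LFC 0.37, FDR 0.0128), and the weakly expressed Cyp2j8 was at LFC 3.09, FDR 0.0075. The number of higher members depended on single mice, being 7 without FeSO4/DEX mouse 3 and 7 without NaCl/DEX mouse 2. The female-biased Cyp3a genes that were lower after FeSO4 in mice given PBS were not called here: the LFC was 0.36 for Cyp3a16, 1.30 for Cyp3a41b, −0.17 for Cyp3a41a and −0.04 for Cyp3a44. FeSO4/DEX mouse 1 was the highest of its group for each of these genes. For Cyp3a16 it had 5273 normalized counts. The other FeSO4/DEX mice, at 223 and 757, lay below all NaCl/DEX mice (2646, 1313 and 939). This held for Cyp3a16 only. FeSO4/DEX mouse 3 lay within the NaCl/DEX range for Cyp3a41a (3581, range 3114 to 4807), Cyp3a41b (118, range 48.3 to 201) and Cyp3a44 (1638, range 1199 to 2362). FeSO4/DEX mouse 2 was below all NaCl/DEX mice for these genes too.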

How the data were processed

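Liver RNA from 12 mice (3 per group) was sequenced as stranded mRNA libraries with single-end reads. The authors checked reads with FastQC, mapped them with STAR 2.7.10b to mm39 and deposited raw counts per gene from STAR's gene counting of uniquely mapped reads, without normalization. The authors used DESeq2. Here, GENCODE symbols on GRCm39 were matched to 54749 of 55414 identifiers, and 665 stayed without one. No identical libraries were found: pairs within a group differed beyond sampling noise.

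All 12 libraries, with 16335651 to 23827340 counts each, entered 1 edgeR quasi-likelihood fit (R 4.3.3, edgeR 4.0.16, limma 3.58.1) of the 4 group means with edgeR's low-count filter (13857 genes), TMM factors and a prior count of 0.125. The biological coefficient of variation was 0.169. FDRs are Benjamini-Hochberg adjusted over all tested genes, with a threshold of 0.05. Floors of 3 counts cover counting error only. The samples are described as single mice.

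Members were described by subfamily. Named were the highest member of each subfamily, the largest called changes of members with a mean of at least 50 normalized counts in the higher group, members with a called difference of DEX responses, and examples from lists. Other members were named after their values were seen. Members and lists were chosen with earlier results of these data known. Promoters and transcripts were read from GRCm39 (python 3.11.15, Biopython 1.88), and shared sequence was counted in windows of 100 bases.

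Alternatives were DESeq2 1.42.0, its size factors, scaling to library size, keeping all genes with any count, requiring 10 counts per library, a replicate block, the libraries of a comparison alone, LFC beyond 1, and each mouse left out. Protein sequences were not used here.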

Additional observations from a re-analysis of the deposited data

Results flagged for a closer look

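The DEX response differed between NaCl and FeSO4 mice for 4 of 60 tested members, 2 lower and 2 higher. Among all tested genes, 3.2% were lower and 2.99% higher. The test was of the difference itself (FeSO4 minus NaCl mice, edgeR quasi-likelihood test). For Cyp2b10 the difference was −4.86 on the log2 scale (95% confidence interval −5.59 to −4.13, FDR 3.38e-06), with LFCs of 4.70 in NaCl and −0.16 in FeSO4 mice. For Cyp3a11 it was −0.87 (−1.36 to −0.39, FDR 0.0365), with LFCs of 1.05 and 0.18, and the call was lost when certain single mice were left out, as given above. For Cyp2d13 it was 0.89 (0.50 to 1.28, FDR 0.00985), with LFCs of −0.74 and 0.15. For Cyp3a41b it was 5.02 (2.17 to 7.88, FDR 0.04), with LFCs of −2.14 and 2.88, and without FeSO4/DEX mouse 1 it was 3.12 (FDR 0.149).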

How the results depend on the processing

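With library size alone, members after FeSO4 were 21 lower and 6 higher, and between FeSO4/DEX and NaCl/DEX mice 8 lower and 6 higher. Without a filter on low counts, 14 members were lower after FeSO4, 5 lower and 8 higher after DEX in NaCl mice, 6 were called for DEX in FeSO4 mice and 9 for the difference of the DEX responses. The cause was not tested. With at least 10 counts in every library, which tests fewer genes, 7 were higher after FeSO4. DESeq2 called 4 members higher after DEX in NaCl mice, and the libraries of that comparison alone gave 2 lower and 4 higher. Beyond an LFC of 1, 5 were higher after FeSO4, 0 lower after DEX in NaCl mice, 2 lower and 5 higher between FeSO4/DEX and NaCl/DEX mice, and 2 differed in DEX response.

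Leaving out 1 mouse gave 6 to 13 lower and 8 to 16 higher members after FeSO4, 1 to 2 lower and 2 to 5 higher after DEX in NaCl mice, 0 for DEX in FeSO4 mice, 4 to 5 lower and 7 to 13 higher between FeSO4/DEX and NaCl/DEX mice, and 2 to 4 for the difference of DEX responses. It was 5 higher after DEX without FeSO4/PBS mouse 1 and 4 without NaCl/PBS mouse 2, and 2 lower without NaCl/DEX mouse 1. The difference of DEX responses was called for 2 members without FeSO4/DEX mouse 1, FeSO4/PBS mouse 2, NaCl/DEX mouse 3 or NaCl/PBS mouse 3.

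Deviations from the group means correlated at r −0.092 to 0.129 over 18 pairs of same-numbered mice. Over 36 pairs with different numbers, r was −0.151 to 0.111. These similar ranges gave no ground to pair mice by number, but they do not show that the mice were unpaired. With the replicate number as a block, 8 members were lower and 12 higher after FeSO4, 1 lower and 3 higher after DEX in NaCl mice, 4 lower and 12 higher between FeSO4/DEX and NaCl/DEX mice, 0 were called for DEX in FeSO4 mice and 3 for the difference of DEX responses.

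Of 716 alternative values for 38 results on named members, 625 kept direction and side of the threshold, 58 lost and 25 gained a call, and 8 changed sign, none of them called. These were, after FeSO4 with library size alone, Cyp2d26 (LFC −0.19), Cyp4a10 (−0.15), Cyp4f14 (−0.14) and Cyp4v3 (−0.30), Cyp4v3 with at least 10 counts in every library (−0.0015), Cyp4a10 without NaCl/PBS mouse 1 (range with each mouse left out −0.093 to 0.61), and Cyp4v3 without FeSO4/PBS mouse 2 or NaCl/PBS mouse 2 (−0.080 to 0.087). The libraries of 1 comparison alone cannot give the difference of DEX responses. Detection limits by depth or number of mice were not computed here, and the 5 members with at most 12 reads in any library were not tested.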
